A study of Arabidopsis thaliana with 16 samples.

Results

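The transcripts described here are those of the plastid genome, the small circular chromosome of the chloroplast, as counted in seedlings of Arabidopsis thaliana. They are the rows of the count table whose TAIR gene ID begins with ATCG and whose counts over all libraries add up to 50 or more. Of the 33602 rows in the table, 133 were plastid rows and 106 of these reached that total and are called members below. The members nearest the threshold were ATCG00860 with 50 counts and ATCG01230 with 57, and the nearest rows outside it were ATCG00370 and ATCG00610 with 48 counts each. A filter on low counts then left 97 of the 106 members for testing, and statements on tested members leave out the other 9.

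RNA was sequenced from whole seedlings of cultivar Col-0 that were 6 days old and had been grown in continuous white light at 22 °C. The genotypes were mrg1 mrg2 pif4, mrg1 mrg2, pif4 and WT, each given 3 hours at 28 °C or kept at 22 °C, with 2 libraries per group and 16 in all. MRG1 and MRG2 are chromodomain proteins that read methylated histone H3, and PIF4 is a transcription factor of warmth-induced growth. The alleles and the source of the replicates are not given in the labels, so p-values measure only the spread between libraries. MRG2 had 2 to 8 counts in the libraries labelled as carrying mrg1 mrg2, against 63 to 99 in the other libraries. PIF4 counts ran from 207 to 971 in the libraries labelled as carrying pif4, against 287 to 1292 in the others, so the counts do not check that label. Library totals ran from 7186066 to 11363353 counts.

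Chloroplast genes code for parts of the photosystems, the large subunit of Rubisco, ribosomal proteins and RNAs, and a bacterial-type RNA polymerase. That polymerase works with sigma factors and associated proteins that are made in the nucleus and imported, beside phage-type polymerases that are also nuclear-encoded. Many plastid genes are transcribed together in long units that are later cut, and plastid RNAs have no stable poly(A) tail, the tag by which kits for mRNA usually capture transcripts. The share of plastid reads in such libraries is therefore not the share of plastid RNA in the cell. In whole seedlings, moreover, fewer green cells and less plastid RNA per cell cannot be told apart.

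The reference annotation used here, TAIR10.1 from RefSeq, names a protein for few of the member IDs, through notes that name the plastid protein most like a nuclear one. The 5 described by name here are ribosomal protein L20 (ATCG00660, rpl20), ribosomal protein L2 (ATCG01310, rpl2), the proteolytic subunit of the Clp protease (ATCG00670, clpP), the envelope protein CemA (ATCG00530, cemA) and a protein named as photosystem II reaction center protein G (ATCG00430). The note on ATCG00430 belongs to a nuclear gene for the 20 kDa subunit of NADH-ubiquinone oxidoreductase, and ATCG00430 was not placed on the plastid map. Its name therefore does not settle which complex the protein belongs to, and it is given by ID below. Other members are given by ID alone. Of the 5, rpl20, clpP and cemA have 1 position each on the plastid map, whose length is 154478 bases, and rpl2 has 2. The first 60 coding bases of those 3 genes are shown, with the start codon in capitals, because they are the members whose identity and place are both known. They come from RefSeq (TAIR10.1, chromosome Pltd) and lie at Pltd:68806-68865 on the minus strand for rpl20, Pltd:71823-71882 on the minus strand for clpP and Pltd:60741-60800 on the plus strand for cemA.
rpl20: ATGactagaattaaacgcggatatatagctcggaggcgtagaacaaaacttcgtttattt
clpP: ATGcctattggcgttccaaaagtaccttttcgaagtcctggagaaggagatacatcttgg
cemA: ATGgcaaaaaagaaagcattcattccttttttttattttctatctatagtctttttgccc
The opening of rpl20 belongs to a coding sequence of 354 bases. The clpP sequence, with 591 coding bases, lies in 3 segments, and cemA has 690 coding bases in 1 segment. The motifs TTGACA and TATAAT of bacterial-type promoters were searched on both strands from 250 bases before to 50 bases after each coding start. The windows of rpl20, clpP and cemA held neither. Of all 125 such windows of plastid genes in the annotation, 20.0% held TTGACA and 40.0% held TATAAT. The annotation gives no transcription starts, so a match is only a description of the letters.

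Plastid counts were concentrated in few members. ATCG00490 held 26.5% of all member counts, ATCG00020 18.4% and ATCG00480 7.44%. The 10 members with the highest mean CPM (counts scaled to a fixed library total) together held 74.9%, the other 7 being ATCG00340, ATCG00280, ATCG01020, ATCG00350, ATCG00680, ATCG00470 and ATCG00950. These are shares of counts, not levels per length, because most IDs have no length in the sources used here. The 5 annotated members were of low to middle abundance, with total counts of 33212 for ATCG00430, 9042 for cemA, 8178 for clpP, 2633 for rpl20 and 265 for rpl2.

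All members together took from 1.68% to 3.21% of a library's counts. In replicate 2 and replicate 1, in that order, the share was 2.59% and 1.68% in mrg1 mrg2 pif4 at 28 °C, and 2.59% and 1.88% in mrg1 mrg2 pif4 at 22 °C. It was 3.04% and 2.33% in mrg1 mrg2 at 28 °C, and 2.98% and 2.38% in mrg1 mrg2 at 22 °C. The pif4 libraries had 2.90% and 1.78% at 28 °C, against 2.34% and 2.27% at 22 °C. The WT libraries had 3.21% and 1.99% at 28 °C, against 2.08% and 2.18% at 22 °C. The replicate 2 library was thus the higher one in 7 of 8 groups, and WT at 22 °C was the exception.

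**Figure D1:**
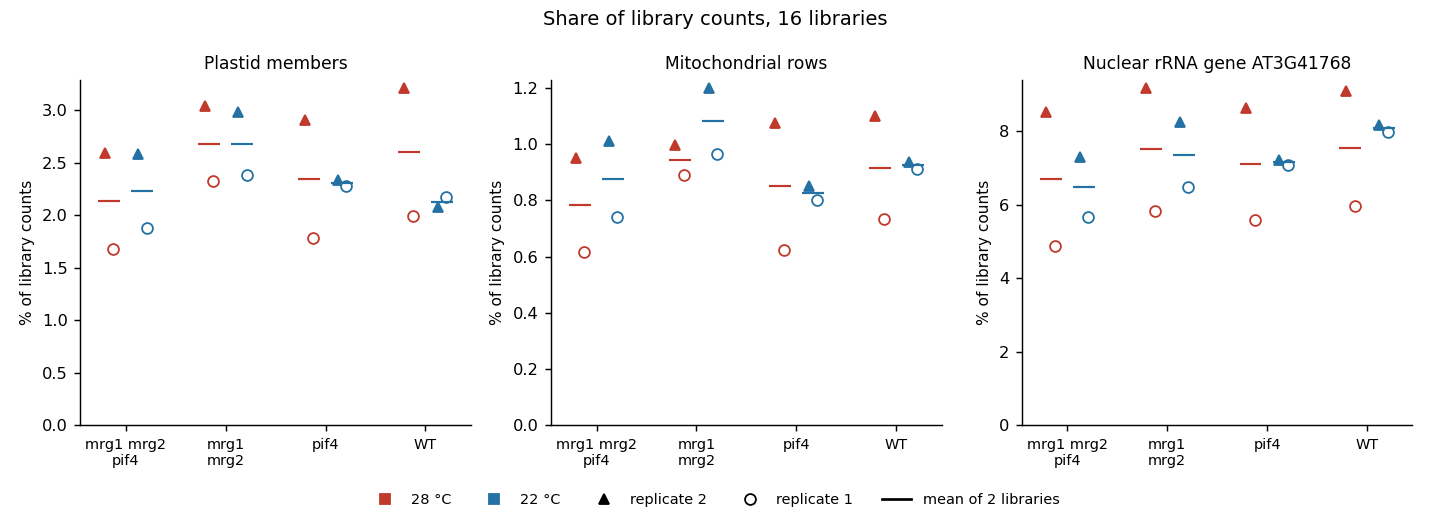
Share of library counts, in percent, of the plastid members, the mitochondrial rows with 50 or more counts and the nuclear rRNA gene AT3G41768, by genotype and temperature; triangles are replicate 2, open circles replicate 1 and lines the mean of the 2 libraries. Plastid shares lie between 1.68% and 3.21%, and the triangle lies above the circle in 7 of 8 groups for plastid counts and in 8 of 8 for the other kinds.

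Mean plastid shares were 2.72% in replicate 2 and 2.06% in replicate 1, a difference of 0.655 percentage points (two-sided exact permutation of the replicate number within groups, p = 0.0234, where 0.00781 is the smallest p possible; adjusted over 5 share tests, p = 0.117). Between temperatures the means were 2.44% at 28 °C and 2.34% at 22 °C, which differed by 0.10 points (two-sided exact permutation within genotype, p = 0.682, adjusted p = 0.833). This sign turned when the second WT library at 28 °C was left out (-0.0513 points), or the second 28 °C library of pif4 (-0.04 points) or of mrg1 mrg2 pif4 (-0.01 points). Taken within replicate 2, the share was 3.21% at 28 °C against 2.08% at 22 °C in WT, 2.90% against 2.34% in pif4 and 3.04% against 2.98% in mrg1 mrg2, and 2.59% at both temperatures in mrg1 mrg2 pif4. Taken within replicate 1, the share was lower at 28 °C in each of the 4 genotypes, for instance 1.99% at 28 °C against 2.18% at 22 °C in WT. The warm-treated seedlings thus had more plastid counts in one set of libraries and fewer in the other.

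Against WT, the mean share was 2.68% in mrg1 mrg2 and 2.36% in WT over both temperatures (difference 0.316 points, two-sided exact permutation within temperature, p = 0.333, adjusted p = 0.833). It was 2.32% in pif4 and 2.36% in WT (difference -0.04 points, exact permutation p = 0.833, adjusted p = 0.833), and 2.18% in mrg1 mrg2 pif4 and 2.36% in WT (difference -0.181 points, exact permutation p = 0.667, adjusted p = 0.833). With 4 libraries against 4, the smallest p these tests allow is 0.0556. Leaving out WT at 28 °C replicate 2 turned the sign for pif4 (0.266 points) and for mrg1 mrg2 pif4 (0.125 points). Leaving out the replicate 1 library of the mutant at 28 °C did the same, with 0.241 points for pif4 and 0.0474 points for mrg1 mrg2 pif4. The genotype tests therefore could not reach a p under 0.05 and cannot decide whether the shares differ. At 22 °C, both mrg1 mrg2 libraries (2.38% and 2.98%) and both pif4 libraries (2.27% and 2.34%) lay above both WT libraries (2.08% and 2.18%). The mrg1 mrg2 pif4 libraries lay on either side of WT there (1.88% and 2.59%). At 28 °C each mutant overlapped with WT.

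The difference by replicate number ran through most of the single members. With the 8 groups held fixed, edgeR's quasi-likelihood test called 56 of the 97 tested members (50 higher and 6 lower in replicate 2), against a background of 0.613% of all 20075 genes tested, with 0.503% higher and 0.11% lower. A call here and below means a Benjamini-Hochberg adjusted p under 0.05 over all genes tested. The median log2 change over the members was 0.46, against 0.00 over all genes, and the called increases ran from 0.33 to 1.37. Of 36 mitochondrial rows tested, 19 rose, with a median log2 change of 0.65. The nuclear rRNA gene AT3G41768, whose RNA also has no stable poly(A) tail, rose by 0.48 (edgeR adjusted p = 2.66e-13). What the replicate number stands for is not given in the labels, and the part of library preparation in these values was not tested.

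ATCG00120 had the smallest p. Its level in replicate 2 and replicate 1 was 301 and 148 CPM in mrg1 mrg2 pif4 at 28 °C, 339 and 171 CPM in mrg1 mrg2 pif4 at 22 °C, 345 and 220 CPM in mrg1 mrg2 at 28 °C, and 343 and 231 CPM in mrg1 mrg2 at 22 °C. In pif4 it was 358 and 180 CPM at 28 °C and 288 and 205 CPM at 22 °C, and in WT 388 and 191 CPM at 28 °C and 225 and 191 CPM at 22 °C. Replicate 2 was higher in each of the 8 groups, and the log2 change was 0.79 ± 0.05 (SE; edgeR adjusted p = 1.55e-19). ATCG00340 rose by 0.90 ± 0.07 (edgeR adjusted p = 3.29e-16), ATCG00130 by 0.69 ± 0.05 (edgeR adjusted p = 2.98e-16) and ATCG00090 by 1.37 ± 0.11 (edgeR adjusted p = 4.20e-15). The 2 members with most counts were among the 50, with log2 changes of 0.52 ± 0.04 for ATCG00490 and 0.51 ± 0.05 for ATCG00020. Clp protease subunit clpP and envelope protein cemA also rose, each by 0.34 ± 0.05.

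The 6 members that were lower in replicate 2 changed less. ATCG00630 fell by 0.29 ± 0.04 on the log2 scale (edgeR adjusted p = 2.08e-07), ATCG01020 by 0.24 ± 0.04, ATCG01130 by 0.21 ± 0.04, ATCG00470 by 0.19 ± 0.03 and ATCG00480 by 0.14 ± 0.03, and ATCG00400 was the other. Of the annotated members, rpl20 had a log2 change of 0.24 ± 0.08 and ATCG00430 of -0.09 ± 0.03, and neither was called. Counted by group, 82 of 97 members were higher in replicate 2 in WT at 28 °C, 86 in mrg1 mrg2 at 28 °C, 85 in pif4 at 28 °C and 75 in mrg1 mrg2 pif4 at 28 °C. At 22 °C the counts were 76 in mrg1 mrg2 pif4, 66 in mrg1 mrg2, 45 in pif4 and 42 in WT. Over the 8 groups, 26 members were higher in replicate 2 in all and 2 in none.

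**Figure D2:**
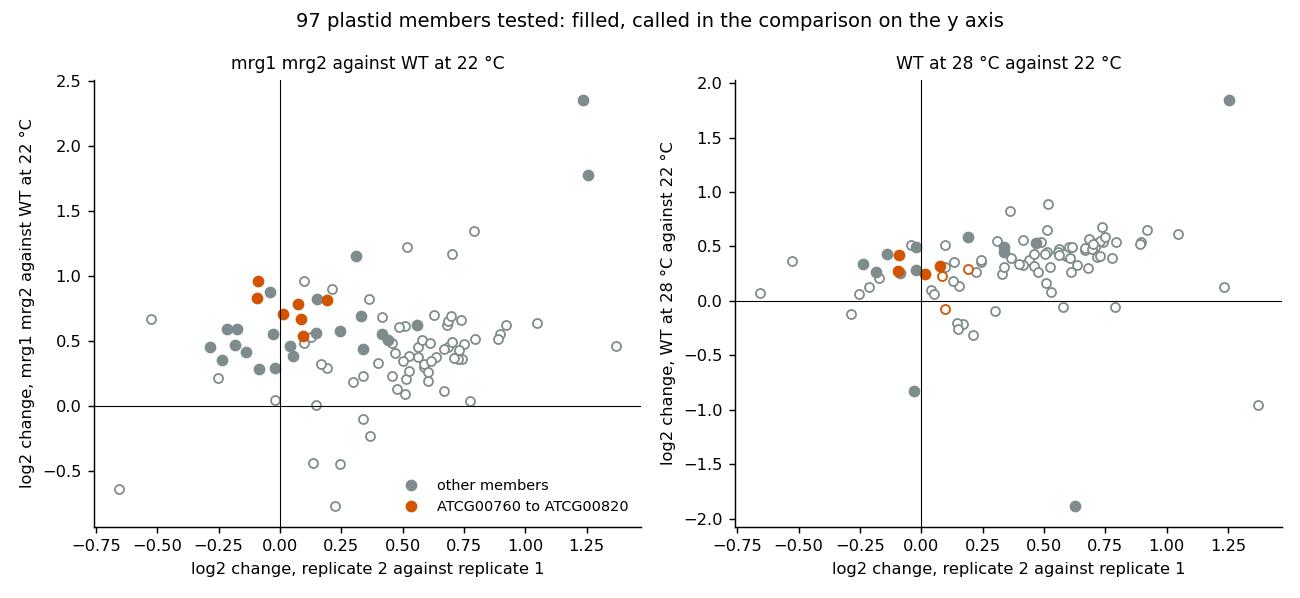
Log2 change of each of the 97 tested plastid members between replicate 2 and replicate 1 (x axis) against its log2 change in mrg1 mrg2 over WT at 22 °C (left) or in WT at 28 °C over 22 °C (right); filled points were called in the comparison on the y axis, and orange marks the 7 IDs from ATCG00760 to ATCG00820. Most members lie to the right of 0 on the x axis, and the orange ones lie between -0.09 and 0.19.

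This spread entered the tests between groups, which had no replicate term. Between pairs of groups, the differences of replicate 2 from replicate 1 correlated by 0.11 to 0.76 over the 97 members in all 28 pairs, and by -0.01 to 0.08 over all genes. Counts from a fit with a replicate block are therefore given beside those without one where they differ by more than 1.5 times. The background shares between groups come only from the edgeR fit of all 16 libraries without that block. Counts with the block, from another tool or with a library left out have no such share beside them. Whether they differ from all genes in the same fit was not tested. The SE of a log2 change between groups was 0.20 for ATCG00490 and 0.28 for ATCG00120, whose replicates lay apart, and 0.07 for ATCG00790, whose replicates lay close.

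Of the members called at 22 °C, all but 1 were higher in the mutant than in WT. In mrg1 mrg2, 30 of 97 members (30.9%) changed and all 30 were higher, against a background of 24.5% of all genes changed, 12.3% higher and 12.2% lower. The median log2 change over tested members was 0.47, with 0.23 within replicate 1 and 0.50 within replicate 2 (log2 of CPM + 0.5), where 78 and 95 of 97 members were above 0. Without WT at 22 °C replicate 2, 15 members changed, with the DESeq2 Wald test 12 did, and with a replicate block 57 did, of which 56 were higher. In pif4, 16 members (16.5%) changed and all were higher (background 10.8% changed, 5.8% higher and 5.05% lower), with a median of 0.23, and of 0.16 within replicate 1 and 0.20 within replicate 2, where 73 and 78 members were above 0. A replicate block raised the count to 27. In mrg1 mrg2 pif4, 10 rose and 1 fell, together 11.3% of the members (background 15.4%, with 7.86% higher and 7.55% lower), with a median of 0.18, and of -0.12 within replicate 1 and 0.36 within replicate 2, where 40 and 83 members were above 0. With a replicate block, 16 rose and 5 fell. Over all members the direction in this mutant thus differed between the replicate numbers. The 3 comparisons share the 2 WT libraries, so they are not independent of each other. Medians within a replicate number, here and below, use library totals, while the others carry the scaling of the edgeR fit. A median over both replicates can therefore lie outside the 2 within them.

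The lowest p in each of the 3 comparisons belonged to a member of one run of IDs, ATCG00760 to ATCG00820, which was singled out, and its limits set, after its values were seen. All 7 IDs in the run rose in mrg1 mrg2 (log2 changes of 0.54 to 0.96) and in pif4 (0.79 to 0.95), and 5 rose in mrg1 mrg2 pif4, where the 7 ran from 0.22 to 0.61. None of the 7 was called by replicate number, and 75 of the 97 members had an unadjusted p under 0.05 in that comparison. ATCG00780, ATCG00790, ATCG00810 and ATCG00820 were among those 75, with log2 changes of -0.09, -0.09, 0.08 and 0.19 in that order. None of the 7 has a name in the sources used here. Counts of calls within the run, here and below, only describe a list taken from these same data.

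ATCG00780 stood at 125 and 135 CPM in mrg1 mrg2 pif4, 155 and 172 CPM in mrg1 mrg2 and 151 and 165 CPM in pif4, against 74.6 and 97.9 CPM in WT, all at 22 °C. Every mutant library was above both WT libraries. The log2 change was 0.61 ± 0.08 in mrg1 mrg2 pif4 (edgeR adjusted p = 7.86e-07), 0.96 ± 0.08 in mrg1 mrg2 (edgeR adjusted p = 1.19e-11) and 0.95 ± 0.08 in pif4 (edgeR adjusted p = 3.95e-11). ATCG00790 had 212 and 259 CPM in mrg1 mrg2 pif4, 249 and 292 CPM in mrg1 mrg2 and 262 and 274 CPM in pif4, against 145 and 168 CPM in WT. Here too no mutant library overlapped with WT, and the log2 changes were 0.60, 0.83 and 0.85, each ± 0.07 (largest edgeR adjusted p of the 3, 8.06e-08). A lack of overlap, in either direction, held for 54.6%, 60.3% and 52.4% of all genes in these comparisons. It held for 37% to 61% of all genes over the comparisons of 2 groups here and below, so by itself it sets no member apart. ATCG00800 rose by 0.55 in mrg1 mrg2 pif4, 0.70 in mrg1 mrg2 and 0.84 in pif4, each ± 0.08.

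**Figure D3:**
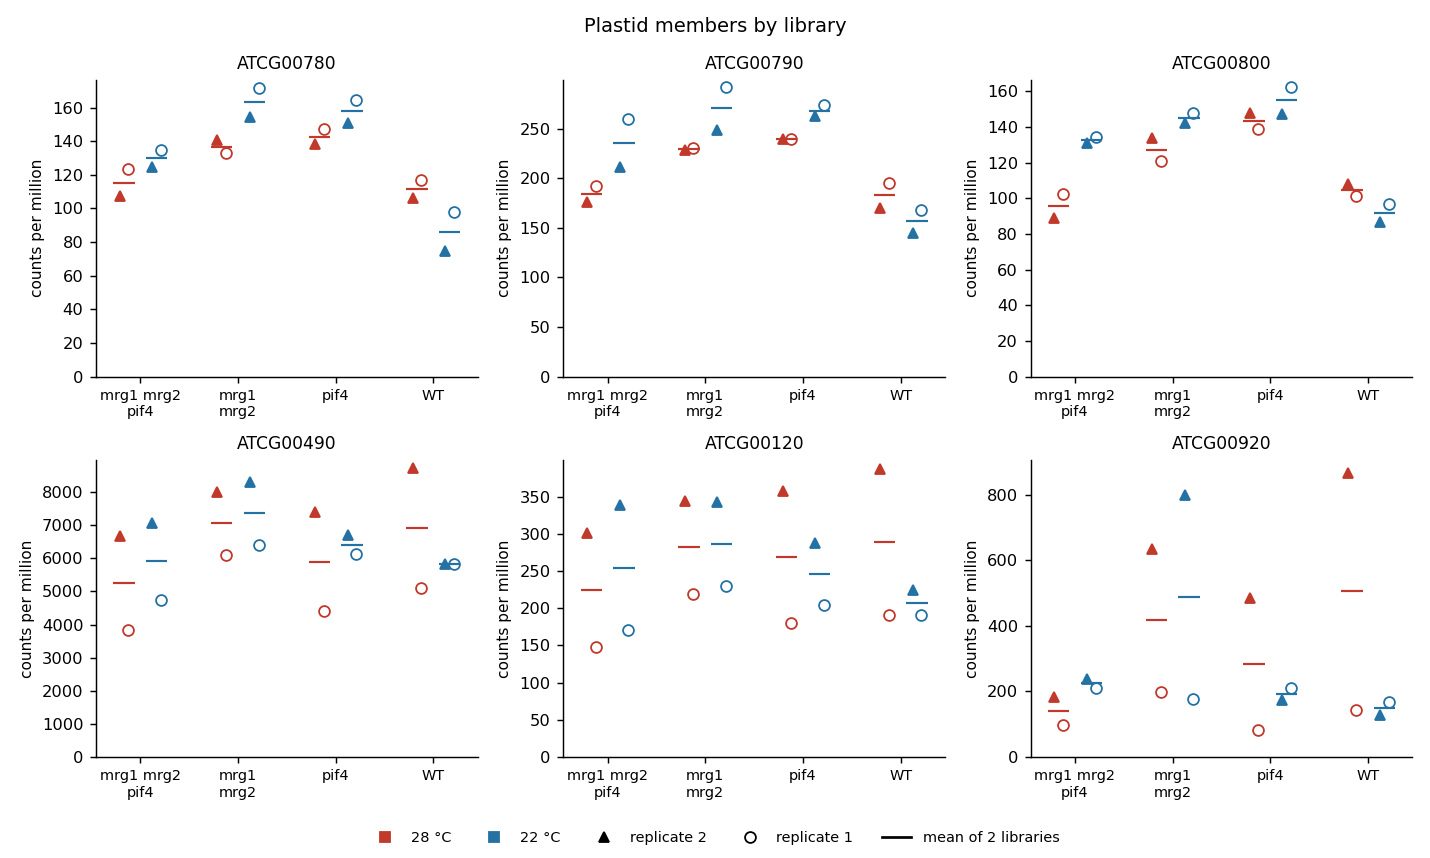
CPM of 6 plastid members in the 16 libraries, by genotype and temperature; triangles are replicate 2, open circles replicate 1 and lines the mean of the 2 libraries. ATCG00780, ATCG00790 and ATCG00800 are lowest in the WT libraries at 22 °C or close to it, ATCG00490 and ATCG00120 differ mainly by replicate number, and ATCG00920 stands out in 4 replicate 2 libraries between 484 and 867 CPM.

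Outside the run, ATCG00480 and ATCG00470 were among the members that rose in each mutant at 22 °C. The libraries of ATCG00470 overlapped with WT in mrg1 mrg2 pif4. ATCG00480 had 1554 and 1873 CPM in mrg1 mrg2 pif4, 1528 and 1896 CPM in mrg1 mrg2 and 1608 and 1921 CPM in pif4, against 1122 and 1515 CPM in WT. All mutant libraries lay above both WT libraries, with log2 changes of 0.39, 0.42 and 0.50, each ± 0.09. ATCG01130 rose in mrg1 mrg2 by 0.59 ± 0.12 and in pif4 by 0.89 ± 0.12. The 2 most abundant members were not called: ATCG00490 changed by 0.38 ± 0.20 in mrg1 mrg2 and ATCG00020 by 0.09 ± 0.21. Among the annotated members, rpl20 rose in mrg1 mrg2 (0.57 ± 0.19) and in pif4 (0.58 ± 0.19), cemA rose in mrg1 mrg2 (0.44 ± 0.16), and ATCG00430 rose in mrg1 mrg2 (0.28 ± 0.07) and in mrg1 mrg2 pif4 (0.23 ± 0.07).

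One member went the other way. ATCG00210 had 5.27 and 6.28 CPM in mrg1 mrg2 pif4, against 11.2 and 12.2 CPM in WT at 22 °C, and it fell by 1.00 ± 0.20 on the log2 scale (edgeR adjusted p = 0.000443). At 28 °C it had 8.18 and 8.52 CPM in mrg1 mrg2 pif4, 8.44 and 10.8 CPM in mrg1 mrg2 and 6.12 and 9.39 CPM in pif4, against 13.7 and 15.3 CPM in WT. No mutant library overlapped with WT, and the log2 changes were -0.86 ± 0.19 in mrg1 mrg2 pif4 (edgeR adjusted p = 0.00138), -0.61 ± 0.18 in mrg1 mrg2 (edgeR adjusted p = 0.0193) and -0.86 ± 0.19 in pif4 (edgeR adjusted p = 0.00818). At 22 °C the values of -0.44 ± 0.19 in mrg1 mrg2 and -0.35 ± 0.19 in pif4 were not called.

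At 28 °C each mutant was again set against WT, and the mutants were not tested against each other. In pif4, 10 members rose and 1 fell against WT, where 1.59% of all genes changed, 1.17% higher and 0.423% lower, and the median over tested members was -0.05. All 7 IDs of the run ATCG00760 to ATCG00820 were among the 10, with log2 changes of 0.42 to 0.68, as were ATCG00740 (0.55 ± 0.12) and ATCG01130 (0.65 ± 0.12). The median within replicate 1 was -0.09 and within replicate 2 -0.11. Without WT at 28 °C replicate 1, and likewise without pif4 at 28 °C replicate 2, 7 members changed, and 5 did with the DESeq2 Wald test. ATCG00800 had 139 and 148 CPM in pif4, against 101 and 108 CPM in WT, and rose by 0.52 ± 0.08 (edgeR adjusted p = 3.66e-05).

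In mrg1 mrg2 at 28 °C, 7 members rose and 2 fell against WT (background 14.1%, with 6.69% higher and 7.4% lower), with a median of 0.00 over tested members, 0.19 within replicate 1 and -0.11 within replicate 2. The DESeq2 Wald test made 0 calls here, with 7 members at an unadjusted p under 0.05, against 19 by edgeR, and a replicate block gave 15 higher and 2 lower. From the run, ATCG00780 (0.26 ± 0.08), ATCG00790 (0.30 ± 0.07) and ATCG00800 (0.25 ± 0.08) rose. ATCG00220 rose by 0.83 ± 0.18, with 165 and 321 CPM in mrg1 mrg2, against 118 and 151 CPM in WT, and 321 CPM was its highest value in any library. Leaving out the first WT library at 28 °C gave 14 calls in place of 9, of which 10 were lower, leaving out the second gave 5, and leaving out the second mrg1 mrg2 library at 28 °C gave 2.

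In mrg1 mrg2 pif4 at 28 °C the direction was mainly downward, with 1 member higher and 9 lower than in WT (background 11.8%, with 5.29% higher and 6.55% lower). The median over tested members was -0.38, with -0.21 within replicate 1 and -0.345 within replicate 2, where 19 and 16 of 97 members were above 0. With a replicate block 2 were higher and 44 lower, and with the DESeq2 Wald test 1 member was called, a lower one. The ribosomal gene rpl20 had 11.6 and 12.7 CPM in mrg1 mrg2 pif4, against 13.2 and 26.6 CPM in WT, and fell by 0.77 ± 0.20 (edgeR adjusted p = 0.00749). The Clp subunit clpP (ATCG00670) had 41.2 and 51.5 CPM, against 49.2 and 82.4 CPM in WT, and fell by 0.57 ± 0.16 although the libraries overlapped (edgeR adjusted p = 0.0141). For cemA the levels were 47.4 and 60.5 CPM, against 54.2 and 90.0 CPM in WT, again overlapping (-0.48 ± 0.16, edgeR adjusted p = 0.0408). In each of the 3, WT replicate 2 stood far above WT replicate 1. The count of 10 became 2 without WT at 28 °C replicate 2 and 39 without WT at 28 °C replicate 1. It became 6 without mrg1 mrg2 pif4 at 28 °C replicate 1 and 39 without its replicate 2. No ID of the run ATCG00760 to ATCG00820 was called here, with log2 changes of -0.28 to 0.01, while 34 of the 97 members had an unadjusted p under 0.05.

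The response to 3 hours at 28 °C was then compared within each genotype. In WT, 15 members rose and 2 fell, which is 17.5% of the tested members against a background of 26.9% of all genes (13.3% higher, 13.7% lower). The median over tested members was 0.38, but it was -0.10 within replicate 1 and 0.60 within replicate 2, where 37 and 88 of 97 members were above 0. With a replicate block 46 rose and 4 fell, and with the DESeq2 Wald test 3 rose and 1 fell. ATCG00780 had 106 and 117 CPM in WT at 28 °C, against 74.6 and 97.9 CPM in WT at 22 °C, and rose without overlap by 0.43 ± 0.08 (edgeR adjusted p = 0.000136). ATCG00480 rose by 0.43 ± 0.09 (edgeR adjusted p = 0.000208) and ATCG00420 by 0.29 ± 0.06 (edgeR adjusted p = 0.000568). Annotated members cemA (0.49 ± 0.16), clpP (0.45 ± 0.16) and ATCG00430 (0.26 ± 0.07) were also called, the first 2 with overlapping libraries. The count of 17 became 4, of which 3 were lower, without WT at 22 °C replicate 2, 9 without WT at 28 °C replicate 2 and 56 without WT at 28 °C replicate 1.

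In mrg1 mrg2, 9 members changed with warmth and all were lower (background 26.9%, with 12.8% higher and 14.1% lower; median -0.10, and -0.14 within replicate 1 and 0.01 within replicate 2). ATCG00740 had 51.8 and 59.2 CPM at 28 °C, against 75.4 and 77.6 CPM at 22 °C, and fell by 0.48 ± 0.12 (edgeR adjusted p = 0.00151). Of the run ATCG00760 to ATCG00820, 4 of 7 IDs fell. Dropping replicate 2 of mrg1 mrg2 at 22 °C gave 5 calls, and dropping replicate 1 at 28 °C gave 4, of which 3 were higher with warmth. With a replicate block 2 rose and 14 fell, and the DESeq2 Wald test called 3, all lower.

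In mrg1 mrg2 pif4, 12 members changed with warmth and all were lower (background 27.2%, with 12.9% higher and 14.3% lower; median -0.12, and -0.15 within replicate 1 and -0.05 within replicate 2). Of the run, 5 of 7 IDs fell. ATCG00740 stood at 35.2 and 42.8 CPM at 28 °C, against 60.1 and 65.1 CPM at 22 °C (-0.71 ± 0.12, edgeR adjusted p = 1.58e-05). ATCG00800 had 88.6 and 102 CPM at 28 °C, against 131 and 134 CPM at 22 °C, and fell by 0.51 ± 0.08 (edgeR adjusted p = 2.17e-06). The libraries of neither member overlapped. The ribosomal gene rpl20 also fell, by 0.64 ± 0.20. Without mrg1 mrg2 pif4 at 28 °C replicate 2, 23 members changed. A replicate block gave 1 higher and 21 lower, and the DESeq2 Wald test called 7, all lower.

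In pif4, 1 member rose and 5 fell with warmth (background 25.6%, with 13.2% higher and 12.4% lower), the median was 0.06, and it was -0.32 within replicate 1 and 0.22 within replicate 2. ATCG00420 rose by 0.20 ± 0.06, and ATCG00740 fell (-0.38 ± 0.12). No ID of the run was called by edgeR, while 9 of the 97 members had an unadjusted p under 0.05. The count of 6 became 3 without pif4 at 22 °C replicate 2 and 12, of which 11 were higher, without pif4 at 28 °C replicate 1. Adding a replicate block gave 6 higher and 6 lower, and the DESeq2 Wald test 1 higher and 2 lower. ATCG00620 fell with warmth in each of the 4 genotypes. It had 5.99 and 7.19 CPM in mrg1 mrg2 pif4 at 28 °C, against 9.26 and 12.4 CPM at 22 °C, and 9.24 and 9.66 CPM in mrg1 mrg2 at 28 °C, against 12.9 and 16.7 CPM at 22 °C. It had 4.82 and 8.23 CPM in pif4 at 28 °C, against 11.6 and 12.5 CPM at 22 °C, and 4.31 and 6.79 CPM in WT at 28 °C, against 9.92 and 10.7 CPM at 22 °C. The groups did not overlap within any genotype, and the log2 changes were -0.73 ± 0.21, -0.67 ± 0.19, -0.82 ± 0.21 and -0.83 ± 0.23 in that order of genotypes (largest edgeR adjusted p of the 4, 0.00742).

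Whether a mutant responded to warmth differently from WT was tested as an interaction. All calls were negative, meaning that the mutant's change was more downward or less upward than that of WT. There were 7 in mrg1 mrg2 (background 4.81%, with 2.37% higher and 2.44% lower; median -0.46), 2 in pif4 (background 4.11%, with 2.35% higher and 1.76% lower; median -0.31) and 9 in mrg1 mrg2 pif4 (background 5.83%, with 2.37% higher and 3.47% lower; median -0.51). These comparisons share the WT libraries. In the order mrg1 mrg2, pif4 and mrg1 mrg2 pif4, a replicate block gave 22, 6 and 34 calls and the DESeq2 Wald test 3, 1 and 5, all negative. ATCG00780 had interaction values of -0.70 ± 0.12 in mrg1 mrg2 (edgeR adjusted p = 0.000137), -0.53 ± 0.12 in pif4 (edgeR adjusted p = 0.00373) and -0.64 ± 0.12 in mrg1 mrg2 pif4 (edgeR adjusted p = 0.000292). Of the run ATCG00760 to ATCG00820, 5 of 7 IDs were called in mrg1 mrg2, 2 in pif4 and 5 in mrg1 mrg2 pif4. The run was singled out with its 22 °C values known, and these also enter the interactions, so the counts are not separate evidence.

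The interaction counts moved with single libraries. For mrg1 mrg2, leaving out replicate 2 of WT at 22 °C gave 2 calls in place of 7. Leaving out a WT library at 28 °C gave 20 calls (replicate 1) or 2 calls (replicate 2), and 3 calls were made, 1 of them positive, when replicate 1 of mrg1 mrg2 at 28 °C was dropped. For mrg1 mrg2 pif4, dropping replicate 2 of WT at 22 °C gave 5 calls in place of 9, again 1 of them positive. Dropping a WT library at 28 °C gave 21 (replicate 1) or 5 (replicate 2), and dropping replicate 2 of mrg1 mrg2 pif4 at 28 °C gave 22. For pif4, edgeR made 0 calls in place of 2 when replicate 2 of WT at 22 °C was dropped (8 members had an unadjusted p under 0.05) and 5 when replicate 1 of WT at 28 °C was. Dropping replicate 1 of pif4 at either temperature gave 1 call, and dropping its replicate 2 at 28 °C gave 10. Dropping either mrg1 mrg2 library at 28 °C gave 4 in that comparison.

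**Figure D4:**
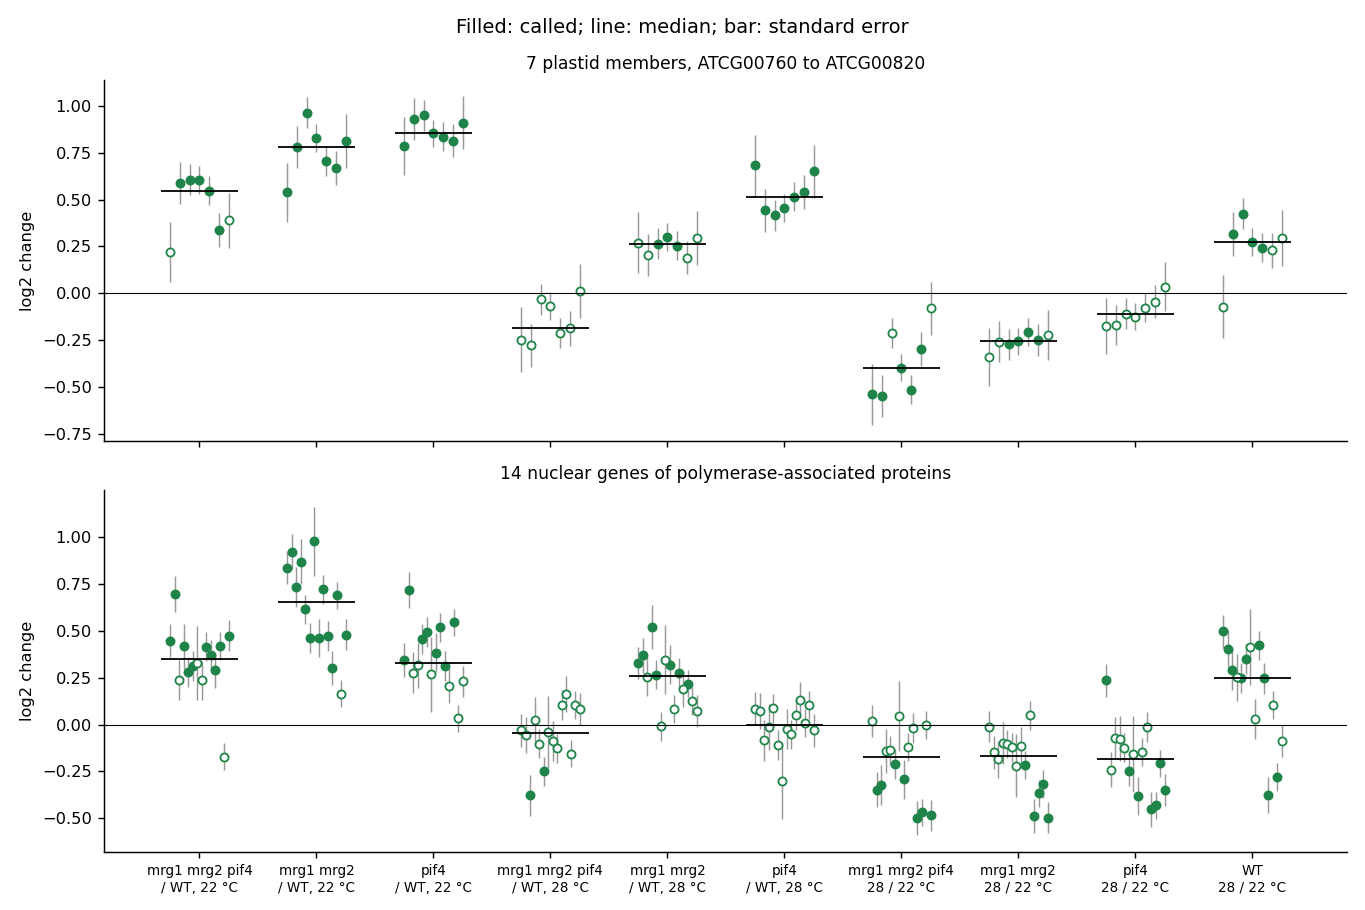
Log2 changes with SE of the 7 plastid members from ATCG00760 to ATCG00820 (top) and of 14 nuclear genes for proteins associated with the plastid RNA polymerase (bottom) in the comparisons of each mutant with WT at 22 °C and 28 °C and of 28 °C with 22 °C within each genotype; filled points were called and lines are medians. The 7 IDs were singled out after their values were seen. Their medians are 0.55, 0.78 and 0.85 in mrg1 mrg2 pif4, mrg1 mrg2 and pif4 at 22 °C. In that order the medians are 0.18, 0.47 and 0.23 over all 97 tested members and 0.35, 0.65 and 0.33 over the nuclear genes.

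A few members had values that single libraries set. ATCG00920 stood at 867 CPM in WT at 28 °C replicate 2, against 144 CPM in replicate 1 of that group and 129 and 168 CPM in WT at 22 °C, so the groups overlapped. Its called warm change in WT of 1.85 ± 0.55 was -0.03 without that library. It also had 801 and 178 CPM in mrg1 mrg2 at 22 °C, 634 and 199 CPM in mrg1 mrg2 at 28 °C, and 484 and 82.9 CPM in pif4 at 28 °C, each time with replicate 2 as the higher library. In mrg1 mrg2 pif4 its values were 184 and 98.0 CPM at 28 °C and 238 and 211 CPM at 22 °C, and in pif4 at 22 °C they were 175 and 211 CPM. ATCG01200, with 197 counts in all, had 6.76 CPM in mrg1 mrg2 at 22 °C replicate 2 and at most 2.87 CPM elsewhere, and its log2 change of -3.50 ± 0.68 with warmth in mrg1 mrg2 rests on those few counts. ATCG00940, with 195 counts in all, stood at 1.58 and 1.78 CPM in mrg1 mrg2, against 0.24 and 0.56 CPM in WT at 28 °C (2.05 ± 0.63). ATCG00080 had 21.5 and 21.6 CPM in mrg1 mrg2 pif4 and 22.2 and 24.4 CPM in mrg1 mrg2, against 25.4 and 42.4 CPM in WT at 28 °C, where it was called lower in both mutants (-0.72 ± 0.18 and -0.57 ± 0.17). Here the 2 WT libraries lay further apart than WT replicate 1 lay from the mutants.

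Of the annotated members, rpl2 was not called in any of the 14 comparisons. It had 0.953 to 2.98 CPM per library, and reads that could come from either of its 2 copies may not have been counted alike. ATCG00430 varied least among the annotated members, from 189 to 261 CPM over the 16 libraries. It rose with warmth in WT, where it had 224 and 229 CPM at 28 °C, against 189 and 205 CPM at 22 °C.

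Nuclear genes that serve plastid transcription were read beside the members. A list of 14 held genes for proteins associated with the plastid-encoded polymerase, with RCB (AT4G28590) counted among them. Of the 14, 13 rose in mrg1 mrg2 against WT at 22 °C (median log2 change 0.65, where 12.3% of all genes rose). In pif4, 8 rose (0.33, 5.8% of all genes), and in mrg1 mrg2 pif4, 10 of the 14 rose (0.35, 7.86% of all genes). Their summed level at 22 °C was 779 and 786 CPM in mrg1 mrg2 pif4, 895 and 929 CPM in mrg1 mrg2 and 740 and 804 CPM in pif4, against 628 and 637 CPM in WT, with no overlap. FLN2 (AT1G69200), a fructokinase-like protein of the polymerase complex, rose by 0.70 ± 0.10 in mrg1 mrg2 pif4, 0.92 ± 0.09 in mrg1 mrg2 and 0.72 ± 0.10 in pif4. The DNA-binding pTAC3 (AT3G04260), another of its proteins, rose by 0.42 ± 0.07, 0.69 ± 0.07 and 0.54 ± 0.07 in the same order.

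At 28 °C, 7 of the 14 rose in mrg1 mrg2, where 6.69% of all genes did, and 2 fell in mrg1 mrg2 pif4, where 6.55% of all genes did, against WT. In pif4 the lowest edgeR adjusted p of the 14 was 0.644 and their median 0.00, while all 7 plastid IDs of the run were called higher in that comparison. With warmth, 7 rose and 2 fell in WT, 5 fell in mrg1 mrg2, 1 rose and 6 fell in pif4, and 7 fell in mrg1 mrg2 pif4. In each genotype, 12.4% to 14.3% of all genes moved in each direction with warmth. FLN1 (AT3G54090) rose by 0.50 ± 0.09 in WT and had 0.02 ± 0.09 in mrg1 mrg2 pif4. By replicate number the median of the 14 was 0.00.

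The sigma factors, which direct the plastid-encoded polymerase to promoters, and the phage-type polymerases were called in both directions. At 22 °C, 1 of these 8 genes rose and 2 fell in mrg1 mrg2, 2 rose and 2 fell in pif4, and 2 rose and 3 fell in mrg1 mrg2 pif4. Over all genes, 12.3% were higher and 12.2% lower in mrg1 mrg2, and 5.8% and 5.05% in pif4. In mrg1 mrg2 pif4 these shares were 7.86% and 7.55%. The counts of 1 to 3 genes are small, and whether they differ from the shares over all genes was not tested. SIG5 (AT5G24120), the light- and stress-responsive sigma factor, fell by 0.65 ± 0.09 in mrg1 mrg2 pif4, 0.35 ± 0.08 in mrg1 mrg2 and 0.40 ± 0.09 in pif4. SIG2 (AT1G08540) rose by 0.29, 0.26 and 0.39 in that order, each ± 0.07. With warmth, 1 of the 8 rose and 3 fell in mrg1 mrg2 pif4 and likewise in mrg1 mrg2. In pif4 1 rose and 2 fell, and in WT 2 rose and 1 fell, beside 12.4% to 14.3% of all genes in each direction. RPOTp (AT2G24120), the phage-type polymerase of the plastid, rose with warmth by 0.37 ± 0.10 in mrg1 mrg2 pif4, 0.39 ± 0.10 in mrg1 mrg2 and 0.63 ± 0.10 in WT. In pif4 RPOTp had 43.3 and 45.7 CPM at 28 °C, against 41.6 and 45.9 CPM at 22 °C. SIG5 had 38.1 and 41.3 CPM in WT at 28 °C, against 62.9 and 63.9 CPM at 22 °C.

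Among 6 genes of plastid RNA processing and decay, 4 fell with warmth in mrg1 mrg2 pif4, 3 in mrg1 mrg2, 3 in pif4 and 2 in WT. The shares of all genes that fell were 14.3%, 14.1%, 12.4% and 13.7% in that order. In WT, 1 also rose with warmth (13.3% of all genes). Against WT at 22 °C, 3 rose in pif4 (5.8% of all genes) and 1 in mrg1 mrg2 (12.3%). Against WT at 28 °C, 4 fell in mrg1 mrg2 pif4 (6.55% of all genes). CSP41B (AT1G09340), an RNA-binding protein of the chloroplast, fell by 0.40 ± 0.05 against WT at 28 °C, and PNP (AT3G03710), the polynucleotide phosphorylase that trims and degrades plastid RNA, by 0.27 ± 0.07. Of the 4 genes for the small subunit of Rubisco, 4 rose in mrg1 mrg2 against WT at 22 °C (median 0.13; 12.3% of all genes) and 3 fell in mrg1 mrg2 pif4 against WT at 28 °C (median -0.24; 6.55% of all genes). GUN1, a chloroplast protein of signalling to the nucleus, rose at 22 °C by 0.21, 0.24 and 0.32 in mrg1 mrg2 pif4, mrg1 mrg2 and pif4, and fell with warmth by 0.50, 0.47, 0.52 and 0.23 in mrg1 mrg2 pif4, mrg1 mrg2, pif4 and WT, each ± 0.05.

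Tissue markers moved with some of these comparisons. Of 10 root markers, 7 fell in mrg1 mrg2, 4 in pif4 and 4 in mrg1 mrg2 pif4 against WT at 22 °C, and 5 fell with warmth in WT. The shares of all genes that fell were 12.2%, 5.05%, 7.55% and 13.7% in that order. In the interactions, 1 root marker was called in mrg1 mrg2, 4 in pif4 and 4 in mrg1 mrg2 pif4, all positive, where 2.37%, 2.35% and 2.37% of all genes were. Their summed level was 167 and 173 CPM in mrg1 mrg2 pif4, 129 and 135 CPM in mrg1 mrg2 and 159 and 165 CPM in pif4, against 224 and 232 CPM in WT at 22 °C, and 149 and 151 CPM in WT at 28 °C. In mrg1 mrg2 at 22 °C, PRP3 (AT3G62680) had 14.8 and 16.7 CPM, against 63.2 and 63.7 CPM in WT. SHR (AT4G37650) had 20.8 and 23.6 CPM there, against 20.4 and 21.2 CPM in WT, which overlapped. SCR (AT3G54220) had 31.2 and 36.8 CPM, against 32.5 and 39.8 CPM in WT, also overlapping. PLT1 (AT3G20840) was not lower, with 3.38 and 4.07 CPM, against 2.75 and 2.86 CPM in WT. No root marker was at 0 in any library. Of 3 markers of green tissue, 3 fell in mrg1 mrg2 pif4 against WT at 28 °C, with a summed level of 21553 and 22798 CPM, against 25530 and 26440 CPM in WT (6.55% of all genes fell). In pif4, 2 of the 3 rose against WT at 22 °C (5.8% of all genes) and 1 at 28 °C (1.17% of all genes). Their summed levels were 30791 and 31522 CPM in pif4, against 23914 and 24569 CPM in WT at 22 °C, and 29261 and 29588 CPM in pif4 at 28 °C. The rise of the sum lay mainly in LHCB1.3 (AT1G29930), with 20998 and 21721 CPM in pif4, against 13768 and 14346 CPM in WT at 22 °C. RCA (AT2G39730) was lower in pif4 there, with 7373 and 7391 CPM, against 7879 and 7987 CPM. In mrg1 mrg2 pif4, 2 rose and 1 fell against WT at 22 °C (7.86% and 7.55% of all genes). With warmth, 2 of the 3 rose in WT (13.3% of all genes) and all 3 fell in mrg1 mrg2 pif4 (14.3% of all genes). In the interactions, 2 were called in mrg1 mrg2, 1 in pif4 and 3 in mrg1 mrg2 pif4, all negative, where 2.44%, 1.76% and 3.47% of all genes were. None of the 3 was at 0 in any library. The 2 seed storage genes summed to at most 6.67 CPM outside pif4 at 28 °C, where they had 63.8 and 65.9 CPM. The part of these markers in the plastid values was not tested.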

How the data were processed

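The deposited table holds raw read counts per gene, not normalised by the authors, for 33602 genes in 16 libraries. Per the submitters' processing notes, cutadapt, HISAT2, SAMtools and featureCounts were used with TAIR10; versions, options, strand setting and the handling of reads with several positions are not stated there. Per the labels' protocols, libraries were made with a stranded mRNA kit. Reads of overlapping plastid genes, or of genes present in 2 copies, therefore cannot be assigned with certainty. No sample column was left unused (0), and 0 rows lacked a gene.

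The count table was analysed with edgeR 4.0.16 in R 4.3.3: filterByExpr with min.count 10 and min.total.count 15, leaving 20075 genes; TMM; and 1 quasi-likelihood fit of 8 groups with 8 residual degrees of freedom. Comparisons number 14, and the replicate comparison adds the replicate number to the 8 groups. P-values are two-sided, with Benjamini-Hochberg adjustment across the 20075 genes; an SE is the log2 change divided by the square root of F. On simulated data, 143 of 200 genes with a 2-fold change were called in a WT warm comparison of 20075 genes, with 13 false calls. The simulated counts held no difference by replicate number, so these figures do not describe the plastid members. Library totals ran from 7186066 to 11363353 counts, and 2 libraries per group limit the precision.

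Plastid shares were tested by exact permutation. Alternatives were DESeq2 1.42.0, other scalings, no filter, a replicate block and leaving out each library. Members and gene lists were chosen with earlier results of these data known. Named members were those nearest the threshold, the 10 with most CPM, and, per comparison and direction, the 3 with smallest p and the 3 with largest change; other members named were annotated or were singled out after their values were seen. Parts of the plan that need gene names for ATCG IDs (classes by gene symbol, a list of named genes) could not be applied beyond clpP. Promoter windows are not printed, since transcription starts are not annotated. One item is not reported here.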

Additional observations from a re-analysis of the deposited data

Results flagged for a closer look

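The warm response of a mutant differed from that of WT, by the interaction test of edgeR, for 7 tested members in mrg1 mrg2, 2 in pif4 and 9 in mrg1 mrg2 pif4. These were 7.22%, 2.06% and 9.28% of the tested members, against 4.81%, 4.11% and 5.83% of all genes. The share in pif4 was thus below that of all genes. In mrg1 mrg2 the named ones were ATCG00780 (log2 difference -0.70), ATCG00790 (-0.53), ATCG00800 (-0.45) and ATCG00640 (-0.91). In pif4 they were ATCG00780 (-0.53) and ATCG00790 (-0.40). In mrg1 mrg2 pif4 they were ATCG00800 (-0.76), ATCG00790 (-0.67), ATCG00780 (-0.64), ATCG00920 (-2.54), ATCG00660, which is rpl20 (-1.02), and ATCG00770 (-0.86). The WT libraries are shared by the 3 tests. In mrg1 mrg2 pif4, 9 of 22 alternatives lost the call of ATCG00920 and 6 that of rpl20. In mrg1 mrg2, 7 lost that of ATCG00640 and 4 that of ATCG00800, and in pif4, 6 lost that of ATCG00790 and 1 that of ATCG00780. For ATCG00780 the call held in all 22 alternatives in mrg1 mrg2 and in mrg1 mrg2 pif4, with edgeR or DESeq2 adjusted p of at most 0.00547 and 0.0125.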

How the results depend on the processing

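Counts of called members depended on the tool and on single libraries, and causes were not tested. For these alternatives the share of all genes called was not counted, so the counts have no background beside them. With the DESeq2 Wald test the counts were 7, 3, 3 and 4 for warmth in mrg1 mrg2 pif4, mrg1 mrg2, pif4 and WT. They were 12 for mrg1 mrg2 against WT at 22 °C and 1, 0 and 5 for mrg1 mrg2 pif4, mrg1 mrg2 and pif4 against WT at 28 °C, where the 0 of DESeq2 stands beside 7 members with an unadjusted p under 0.05. They were 5, 3 and 1 for the interactions of mrg1 mrg2 pif4, mrg1 mrg2 and pif4, and 32 by replicate number. Library totals without TMM gave 3 interaction calls in mrg1 mrg2 and 1 in pif4; that scaling moved the median of all genes by at most 0.089. With a replicate block the counts were 22, 16, 12 and 50 for warmth in mrg1 mrg2 pif4, mrg1 mrg2, pif4 and WT. They were 21, 57 and 27 for mrg1 mrg2 pif4, mrg1 mrg2 and pif4 against WT at 22 °C, 46 and 17 for mrg1 mrg2 pif4 and mrg1 mrg2 against WT at 28 °C, and 34, 22 and 6 for the 3 interactions. The labels do not say that the replicate numbers pair libraries. Across all genes the pairing check was not met, and across the plastid members it was met in 28 of 28 pairs of groups. Leaving out 1 library at a time gave 10 to 23, 4 to 13, 3 to 12 and 4 to 56 calls for warmth in mrg1 mrg2 pif4, mrg1 mrg2, pif4 and WT. It gave 8 to 13, 15 to 36 and 11 to 17 for mrg1 mrg2 pif4, mrg1 mrg2 and pif4 against WT at 22 °C, and in the same order 2 to 39, 2 to 14 and 7 to 12 at 28 °C, 5 to 22, 2 to 20 and 0 to 10 for the interactions; it gave 52 to 57 by replicate number. The difference in plastid share ran from -0.0513 to 0.255 points between temperatures, from -0.487 to 0.125 for mrg1 mrg2 pif4, from 0.0103 to 0.622 for mrg1 mrg2, from -0.346 to 0.266 for pif4 against WT, and from 0.574 to 0.763 between replicate numbers. Its sign turned between temperatures (-0.0513, -0.039 and -0.0125), for pif4 (0.266 and 0.241) and for mrg1 mrg2 pif4 (0.125 and 0.0474). Of 1750 alternative values for 80 pairs of a named member and a comparison, 1599 kept their call, 150 lost it and 1 turned, ATCG00920 with warmth in WT (-0.026 to 2.64 over the libraries left out). Summing inverted repeat copies and keeping only protein-coding members were not run, since they need names for the IDs.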
